A study of Mus musculus with 24 samples.

Results

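Natural killer (NK) cells are innate lymphocytes that kill infected or transformed cells by releasing granules. In those granules perforin opens pores in the target membrane, and granzymes, which are serine proteases, enter through them and start cell death. Activating and inhibitory receptors on the NK cell surface decide whether granules are released, and a pair of T-box transcription factors directs the maturation of the cell. Cytotoxic T cells share the granule proteins and some of the receptors. In the mouse, NK cells are known to acquire their full set of receptors after birth, and the adult lung holds a large resident and circulating population.

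The 10 genes described are 4 granule and effector genes (Gzma, Gzmb, Prf1 and Nkg7), 4 receptor genes (Ncr1, Klra8, Klrd1 and Klrk1) and 2 transcription factor genes (Eomes and Tbx21). They were chosen by name with earlier results of these data known, so their counts beside all genes are no independent test. Each was found through the RefSeq transcript accession of its probes. All 10 were among the 19722 named genes on the array and among the 15895 genes tested, which are those with a probe flagged as well above background by the scanner software on 4 arrays or more. Whole lungs of healthy, untreated C57BL/6 mice were sampled at postnatal day 1, day 4, day 7 and day 14 (n = 5 each) and at day 42, labelled as 6 weeks (n = 4). The labels call the replicates biological, but do not say whether each was 1 animal, so the p-values measure only the spread between these samples. The series title speaks of fetal lungs, while each sample is labelled postnatal. Each sample was read on 1 Agilent 1-colour array, and the 24 arrays filled 3 slides that each held all 5 ages.

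Levels are given as the processed spot signal in percent of the 75th percentile of the same array. They can be compared between arrays for 1 gene but not between genes, since probes differ in brightness. Because whole lung was measured, more cells of a type and more RNA per cell cannot be told apart. The surfactant genes Sftpc, Sftpb and Sftpa1 were well above background on all 24 arrays. On 5 arrays the first principal component of all tested genes (49.8% of the variance) lay between -161.3 and -100.3, against -15.64 or more on the other 19. They comprise replicates 4 and 5 of day 1, replicates 1 and 3 of day 4 and replicate 4 of day 42. Their 75th percentile of signal was at most 978.5, against at least 995.0 elsewhere. They are called the 5 arrays, and results are given with and without them.

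All 10 genes had their highest mean at day 42. Between day 42 and day 1, 8 of the 10 rose and none fell, where 13.1% of all genes tested rose and 13.7% fell (limma, adjusted p below 0.05). The genes that rose were Gzma, Gzmb, Ncr1, Klra8, Klrd1, Klrk1, Eomes and Tbx21. Of these, Ncr1, Klra8 and Klrk1 were each well above background on 0 of 5 day 1 arrays and passed the filter through later ages. Their fitted differences and p-values therefore rest in part on signal not well above background. The median log2 difference of the 10, with these genes included, was 3.25, against -0.06 for all genes tested. Between day 42 and day 14, 5 of 10 rose (Gzma, Gzmb, Klra8, Eomes and Tbx21), where 2.19% of all genes did, with a median of 1.60 against 0.07. Between day 14 and day 7, 2 of 10 rose (Klra8 and Eomes), where 6.03% of all genes did, with a median of 1.22 against 0.02. In limma, 0 of 10 passed between day 4 and day 1 and 0 between day 7 and day 4, where 0.0566% and 0.00629% of all genes passed. At an unadjusted p below 0.05 the counts of the 10 were 1 (Eomes, higher at day 4) and 3 (Gzma, Gzmb and Eomes, lower at day 7). All day 42 arrays lay above all day 1 arrays for 7 of the 10 genes (8.69% of all genes) and above all day 14 arrays for 6 (7.69%), and all day 14 arrays lay above all day 7 arrays for 2 (8.54%). A moderated F-test over the 5 ages passed for 9 of 10, all but Prf1, where 31.8% of all genes passed.

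Without the 5 arrays, 10 of 10 rose between day 42 and day 1, where 22.7% of all genes did. The same fit gave 9 of 10 between day 42 and day 14 and 9 of 10 between day 14 and day 7, where 6.77% and 20.4% of all genes rose, and Ncr1 was the gene that did not pass in either. Leaving out day 14 replicate 5 alone raised the count between day 14 and day 7 to 6 of 10, and leaving out day 42 replicate 4 alone raised it to 5. Over the fits that left out 1 array, 1348 to 2369 of all 15895 genes passed in that comparison, against 1842 with all arrays. With limma array weights 5 of 10 passed between day 7 and day 4, 1 higher and 4 lower, where the unweighted fit had 0. In that weighted fit 4469 of 15895 genes passed, against 1 without weights.

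**Figure D1:**
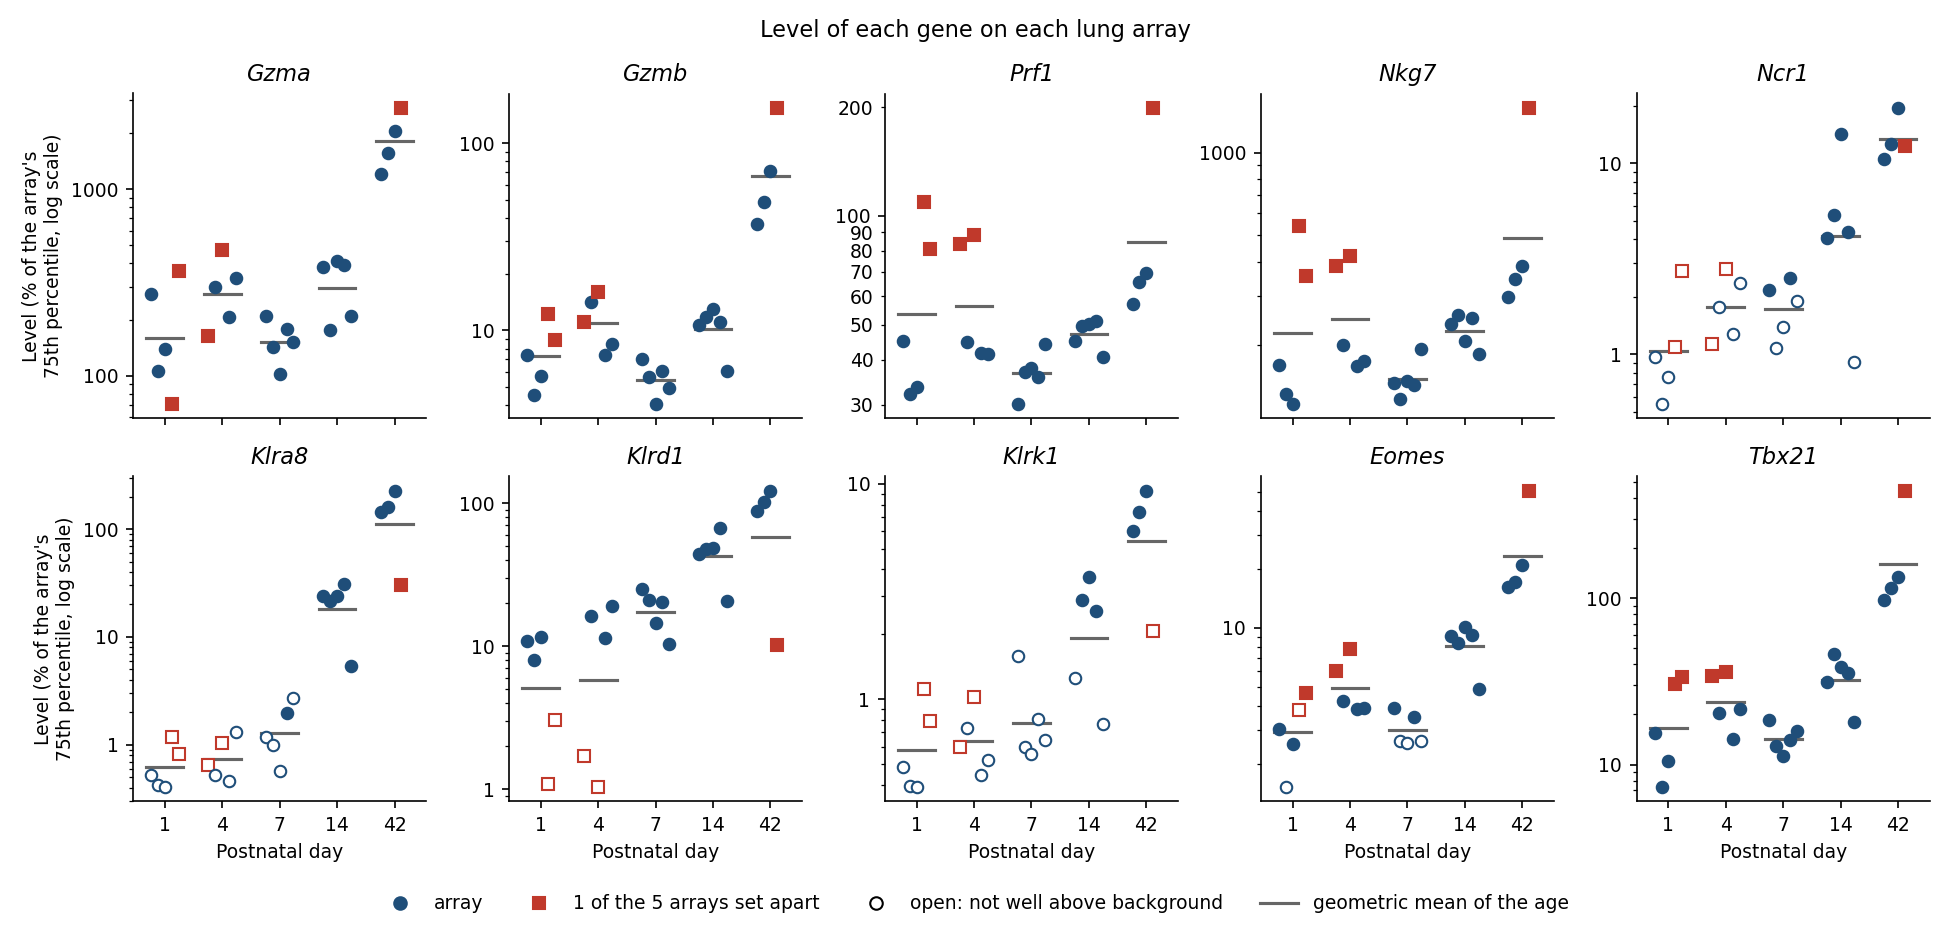
Level of each of the 10 genes on each of the 24 arrays, in percent of the array's 75th percentile (log axis), by postnatal day. Squares are the 5 arrays that stand apart, open symbols were not well above background, and lines are geometric means. All 10 means are highest at day 42, while the squares lie high for Prf1, Nkg7, Eomes and Tbx21 and low for Klrd1.

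The promoter letters of Gzma, Gzmb, Prf1 and Ncr1 are shown as examples of promoters that hold the letters of a searched motif. RefSeq (GRCm38.p6) gave a promoter for 9 of the 10 genes, Klrd1 being named only. The window was the 250 bases before the transcript start, read along the gene's own strand. The letters TGTGGT, the core recognized by Runx factors, were searched on both strands where the opposite strand reads ACCACA, together with the T-box half-site GGTGTGA, which reads TCACACC on the opposite strand. Capitals mark the Runx letters below. Gzma lies at chr13:113100982-113101231 on the minus strand, Gzmb at chr14:56262335-56262584 on the minus strand, Prf1 at chr10:61297586-61297835 on the plus strand and Ncr1, first of its 2 starts, at chr7:4337465-4337714 on the plus strand.
Gzma: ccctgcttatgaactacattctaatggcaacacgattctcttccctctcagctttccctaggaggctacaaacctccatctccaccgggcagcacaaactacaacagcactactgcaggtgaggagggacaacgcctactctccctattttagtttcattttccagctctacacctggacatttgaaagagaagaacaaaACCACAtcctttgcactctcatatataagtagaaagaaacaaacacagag
Gzmb: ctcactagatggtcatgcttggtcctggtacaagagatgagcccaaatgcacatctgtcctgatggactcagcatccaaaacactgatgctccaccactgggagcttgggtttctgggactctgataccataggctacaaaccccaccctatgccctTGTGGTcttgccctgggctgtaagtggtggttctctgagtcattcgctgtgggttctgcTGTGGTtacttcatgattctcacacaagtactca
Prf1: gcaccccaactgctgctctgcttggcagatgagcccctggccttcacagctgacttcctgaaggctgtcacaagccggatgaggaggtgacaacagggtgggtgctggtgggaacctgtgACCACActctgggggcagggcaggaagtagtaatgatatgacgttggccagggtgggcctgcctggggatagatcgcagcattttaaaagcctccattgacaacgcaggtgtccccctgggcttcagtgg
Ncr1: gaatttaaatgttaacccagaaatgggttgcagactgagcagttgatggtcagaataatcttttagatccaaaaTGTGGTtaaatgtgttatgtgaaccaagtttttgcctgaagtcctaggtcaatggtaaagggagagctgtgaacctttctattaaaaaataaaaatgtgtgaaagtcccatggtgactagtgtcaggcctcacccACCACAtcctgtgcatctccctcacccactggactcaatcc
The Runx letters were present upstream of 6 of the 9 genes (these 4, Nkg7 and Klrk1), and in 15.9% of all 27018 genes with a promoter in the table. In Gzma they lay 50 to 45 bases before the start, and in Gzmb at 93 to 88 and 34 to 29 bases. In Prf1 they lay 130 to 125 bases before the start, and in Ncr1 at 176 to 171 and 41 to 36 bases. They were absent from the windows of Klra8, Eomes and Tbx21. The T-box half-site was present upstream of 1 of the 9 genes, Nkg7, at 13 to 7 bases before its start, and in 3.85% of all genes, and it overlapped no Runx match. A match is a description of the letters and not a site of binding. Runx3 itself, a Runx factor of cytotoxic lymphocytes, had a log2 difference of -0.04 ± 0.26 between day 42 and day 1 (adjusted p = 0.922), and was picked for mention after its values were seen.

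Gzma encodes granzyme A, a trypsin-like protease of NK and cytotoxic T cell granules. Its level was 274, 105, 139, 70.8 and 365 on day 1 replicates 1 to 5, 164, 298, 474, 208 and 333 at day 4 and 208, 142, 102, 177 and 152 at day 7. It was 383, 176, 412.5, 393 and 209 on the day 14 arrays and 1214.5, 1566, 2063 and 2720.3 on the 4 day 42 arrays. Every day 42 array lay above every array of the other ages, and the first 4 ages overlapped one another. The log2 difference was 3.50 ± 0.41 between day 42 and day 1 (11.3-fold, adjusted p = 1.04e-06). It was 2.61 ± 0.41 between day 42 and day 14 (adjusted p = 0.00058). Gzma rose in each of these comparisons also without the 5 arrays, by 3.31 and 2.41.

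Gzmb encodes granzyme B, which cleaves after aspartate and activates caspases in the target. Its level was 7.35, 4.52, 5.67, 12.3 and 8.92 at day 1, 11.1, 14.2, 16.1, 7.36 and 8.45 at day 4 and 7.06, 5.61, 4.06, 6.09 and 4.92 at day 7. It was 10.71, 11.8, 13.04, 11.1 and 6.09 at day 14 and 37.2, 48.7, 71.2 and 154 at day 42. All day 7 arrays lay below all day 4 arrays, which held for 1 of the 10 genes and for 2.43% of all genes tested, but the difference did not pass (-1.01 ± 0.33, adjusted p = 0.378). All day 42 arrays lay above all others. Gzmb rose by 2.71 ± 0.35 between day 42 and day 14 (6.54-fold, adjusted p = 6.65e-05) and by 3.20 ± 0.35 between day 42 and day 1 (9.16-fold, adjusted p = 4.38e-07).

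Prf1 encodes perforin, the pore-forming protein. Its level was 45.1, 32.2, 33.7, 109 and 80.9 at day 1, 83.6, 44.9, 88.6, 41.6 and 41.4 at day 4 and 30.2, 37.0, 38.0, 35.8 and 44.1 at day 7. It was 45.2, 49.6, 50.3, 51.0 and 40.6 at day 14 and 56.9, 65.4, 69.5 and 199 at day 42. The 5 arrays all lay above the other arrays of their age. Prf1 passed in none of the comparisons, with 0.67 ± 0.36 between day 42 and day 1 (adjusted p = 0.198) and 0.84 ± 0.36 between day 42 and day 14 (adjusted p = 0.269). Without the 5 arrays, the day 42 arrays lay above all day 1 arrays, and Prf1 rose by 0.80 (adjusted p = 0.000257) and, against day 14, by 0.43 (adjusted p = 0.0346). Even so, its change was the smallest of the 10 between day 42 and day 1 in both fits.

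Nkg7 encodes a granule membrane protein that takes part in granule release. Its level was 169, 132, 122, 541 and 357 at day 1, 386, 199.6, 422, 166.5 and 174 at day 4 and 145, 127, 147, 142 and 193 at day 7. It was 238, 256, 206, 249 and 185 at day 14 and 298, 347, 385 and 1449 at day 42. As for Prf1, the 5 arrays stood above the rest of their age. The difference between day 42 and day 1 was 1.15 ± 0.44 (adjusted p = 0.0565) with all arrays and 1.29 (adjusted p = 1.01e-05) without the 5 arrays. It also passed when day 1 replicate 4 (1.48, adjusted p = 0.0100), day 1 replicate 5 (1.33, adjusted p = 0.0384) or day 42 replicate 1 (1.39, adjusted p = 0.0367) was left out alone. A second, dimmer Nkg7 probe read 15.3, 6.36, 9.43, 38.7 and 36.2 at day 1 and 102, 112, 149 and 514 at day 42. With every probe tested on its own, that probe rose by 3.37 between day 42 and day 1 (adjusted p = 2.35e-05) and by 1.96 between day 42 and day 14 (adjusted p = 0.0320), so that the probes differ in size and call.

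**Figure D2:**
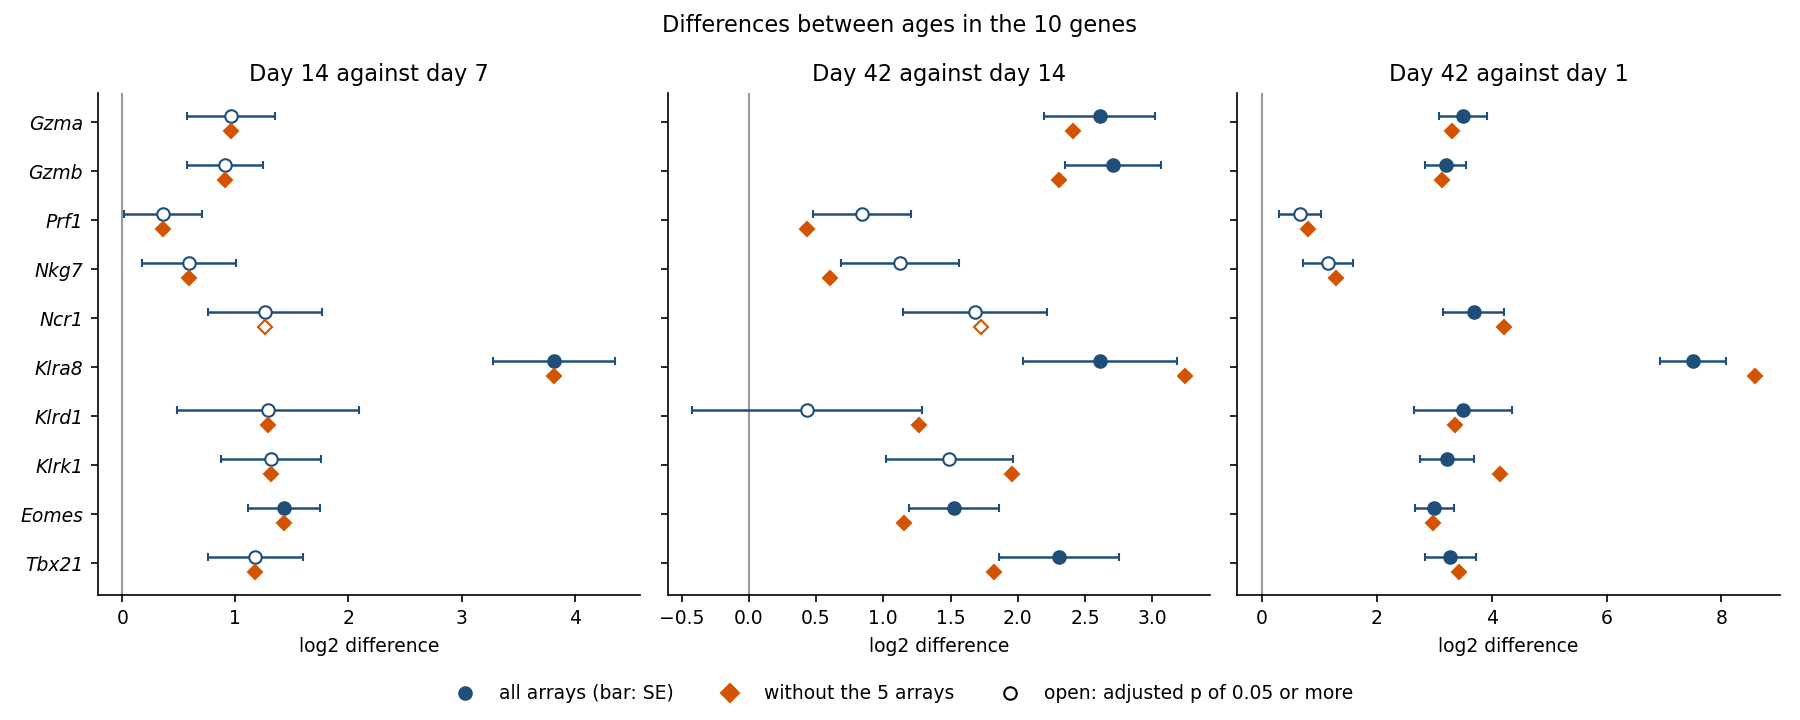
Log2 difference of each gene (x axis) in 3 comparisons of ages, with all 24 arrays (circles, bars are SE) and without the 5 arrays that stand apart (diamonds). Filled symbols passed at an adjusted p below 0.05. All values lie above 0, and between day 42 and day 1 Prf1 is nearest to 0 at 0.67. For Ncr1, Klra8 and Klrk1 the points against day 1 (and for Klrk1 against day 7) are fitted against signal not well above background, so the bounds in the text hold for their size.

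Ncr1 encodes NKp46, an activating receptor used to define mouse NK cells. Its level was 0.973, 0.552, 0.757, 1.09 and 2.72 at day 1, 1.14, 1.77, 2.79, 1.28 and 2.37 at day 4 and 2.17, 1.08, 1.38, 2.52 and 1.90 at day 7. It was 4.04, 5.35, 14.2, 4.39 and 0.916 at day 14 and 10.5, 12.6, 19.4 and 12.3 at day 42. The probe was well above background on 0 of 5, 0 of 5, 2 of 5, 4 of 5 and 4 of 4 arrays from day 1 to day 42, the day 14 exception being replicate 5. Between day 14 and day 7 it passed without day 14 replicate 5 (1.81, adjusted p = 0.00412), against 1.26 ± 0.51 (adjusted p = 0.122) with all arrays. Day 42 and day 14 arrays overlapped, and the difference did not pass (1.68 ± 0.54, adjusted p = 0.0900), but it did without day 14 replicate 3 (2.13, adjusted p = 0.0174). Ncr1 was at least 5.65-fold higher at day 42 than at day 1 (adjusted p = 1.57e-05). For a gene not well above background on any array of an age, that bound sets the measured mean against the lowest signal that is well above background on each array there, or the probe's own signal where higher. The adjusted p printed with such a bound comes from the limma fit to the measured signal and does not test the bound.

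Klra8 encodes Ly49H, an activating receptor that in C57BL/6 mice recognizes a protein of murine cytomegalovirus. Its level was 0.529, 0.424, 0.411, 1.195 and 0.821 at day 1, 0.646, 0.526, 1.03, 0.464 and 1.32 at day 4 and 1.19, 0.996, 0.577, 1.97 and 2.69 at day 7. It was 23.99, 21.6, 23.7, 31.0 and 5.37 at day 14 and 145, 160.4, 224 and 30.1 at day 42. It was well above background on 0 of 5, 0 of 5, 1 of 5, 5 of 5 and 4 of 4 arrays in order of age, and every day 14 array lay above every day 7 array. Day 42 replicate 4 lay within the day 14 range, and the other day 42 arrays lay above it. Klra8 rose by 3.82 ± 0.54 between day 14 and day 7 (adjusted p = 5.97e-05), a size that rests on a day 7 mean that 1 of 5 arrays measured above background. It rose again by 2.61 ± 0.57 between day 42 and day 14 (adjusted p = 0.0105), a call lost when the fit held only these 2 ages (adjusted p = 0.0857). It was at least 47.4-fold higher at day 42 than at day 1 (adjusted p = 3.5e-09). A second probe passed in the same 3 comparisons (adjusted p = 4.7e-05, 0.0106 and 2.5e-09), with 0 of 5 day 1 arrays and 1 of 5 day 7 arrays well above background, and rose by 2.53 between day 42 and day 14. The remaining probe was well above background on 0 arrays. Ly49 genes are close copies of one another, so these probes may also read other members.

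Klrd1 encodes CD94, the partner of NKG2 chains in receptors for the class I molecule Qa-1. Its level was 10.9, 8.02, 11.6, 1.09 and 3.06 at day 1, 1.70, 16.3, 1.04, 11.4 and 19.2 at day 4 and 25.1, 21.1, 14.5, 20.3 and 10.4 at day 7. It was 44.4, 47.8, 48.3, 66.7 and 20.6 at day 14 and 88.4, 101, 121 and 10.1 at day 42. Day 42 replicate 4 lay below every day 14 array, within the range of the day 1 arrays. The 5 arrays all lay below the other arrays of their age, at 1.04 to 10.1, and it was not well above background on the 4 of them from days 1 and 4. The difference between day 42 and day 1 was 3.50 ± 0.85 (adjusted p = 0.00326), or 3.36 without the 5 arrays (adjusted p = 2.14e-06). Between day 42 and day 14 it was 0.43 ± 0.85 (adjusted p = 0.810) with all arrays and 1.27 (adjusted p = 0.0158) without them.

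Klrk1 encodes NKG2D, an activating receptor for ligands that stressed cells display. Its level was 0.485, 0.394, 0.392, 1.11 and 0.789 at day 1, 0.598, 0.733, 1.02, 0.443 and 0.521 at day 4 and 1.58, 0.6005, 0.553, 0.810 and 0.647 at day 7. It was 1.25, 2.90, 3.67, 2.57 and 0.768 at day 14 and 6.06, 7.38, 9.23 and 2.06 at day 42. It was the dimmest in detection, well above background on 3 of 5 day 14 arrays, 3 of 4 day 42 arrays and 0 of the 15 earlier ones. Day 42 replicate 4 overlapped the day 14 arrays and lay above every day 1 array. Klrk1 was at least 2.29-fold higher at day 42 than at day 1 (adjusted p = 1.68e-05), although with the normexp background that call was lost (0.64, adjusted p = 0.0926). Between day 14 and day 7 the bound was at least 1.01-fold higher, and the difference did not pass (adjusted p = 0.0601). That comparison, against 5 day 7 arrays that were all not well above background, passed in limma when any one of 4 arrays was left out: day 14 replicate 5 (adjusted p = 0.0108), day 42 replicate 4 (0.0289), day 7 replicate 1 (0.0303) and day 1 replicate 4 (0.0442). Day 42 against day 14 passed without day 42 replicate 4 (adjusted p = 0.0197).

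Eomes encodes eomesodermin, a T-box factor of NK cells and memory CD8 T cells. Its level was 3.04, 1.54, 2.54, 3.81 and 4.66 at day 1, 6.01, 4.21, 7.76, 3.83 and 3.87 at day 4 and 3.91, 2.63, 2.56, 3.50 and 2.63 at day 7. It was 9.10, 8.41, 10.2, 9.18 and 4.86 at day 14 and 16.1, 17.1, 21.1 and 50.3 at day 42. The day 14 arrays all lay above the day 7 arrays, and the day 42 arrays above all others. The probe was well above background on 3 of 5, 5 of 5, 2 of 5, 5 of 5 and 4 of 4 arrays in order of age. Eomes rose by 1.43 ± 0.32 between day 14 and day 7 (2.70-fold, adjusted p = 0.00368) and by 1.53 ± 0.34 between day 42 and day 14 (2.88-fold, adjusted p = 0.0109). Both calls were lost with the normexp background (adjusted p = 0.109 and 0.0686). The first was also lost with the mean of its 2 probes (0.101), and the second in a fit of these 2 ages alone (0.0720). A dimmer second probe, well above background on 5 of 24 arrays, had 0.59 between day 14 and day 7 (adjusted p = 0.679) and 2.51 between day 42 and day 1 (adjusted p = 0.00396). By its main probe Eomes rose between day 42 and day 1 by 3.00 ± 0.34 (7.99-fold, adjusted p = 5.29e-07).

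Tbx21 encodes T-bet, a T-box factor that drives late NK maturation and type 1 responses. Its level was 15.5, 7.38, 10.6, 30.4 and 33.6 at day 1, 34.0, 20.4, 36.2, 14.2 and 21.5 at day 4 and 18.5, 12.9, 11.3, 14.1 and 15.9 at day 7. It was 31.1, 46.3, 38.5, 35.4 and 18.001 at day 14 and 97.2, 115, 134 and 439 at day 42. The day 42 arrays lay above all others, with replicate 4 highest. Tbx21 rose by 2.31 ± 0.44 between day 42 and day 14 (4.95-fold, adjusted p = 0.00381) and by 3.28 ± 0.44 between day 42 and day 1 (9.69-fold, adjusted p = 6.03e-06). The difference between day 14 and day 7 was 1.18 ± 0.42 (adjusted p = 0.0748). With day 14 replicate 5 left out it passed (adjusted p = 0.0327), as it did when day 42 replicate 4 was left out (0.0305). Gzmb passed in the same 2 fits (0.0332 and 0.0337).

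The arrays that stand apart moved with some of these genes and not with others. Prf1, Nkg7, Eomes and Tbx21 lay above the other arrays of their age on all 5, and Gzmb on 4. Klrd1 lay below them on all 5. Gzma lay above on 3 and below on 2. Day 14 replicate 5 had the lowest level of its age for 9 of the 10 genes, all but Gzma. The part of signal strength in these differences was not tested.

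With slide as a block, the counts were again 2, 5 and 8 of 10 for day 14 against day 7, day 42 against day 14 and day 42 against day 1. Within slides 1, 2 and 3, the difference between day 42 and day 1 was above 0 for 8, 10 and 9 of the 10 genes, with medians of 2.65, 3.21 and 4.15. The exceptions were Prf1 (-0.30) and Nkg7 (-0.02) on slide 1 and Klrd1 (-0.20) on slide 3. Each of these slides held 1 day 42 array, which on slide 3 was replicate 4. The day 1 arrays of slide 1 included day 1 replicate 4, and both of these arrays are among the 5. Between day 42 and day 14 the difference was above 0 for 10, 10 and 9 genes, and between day 14 and day 7 for 10, 10 and 10.

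Other lectin-like receptors of NK cells rose as well. Of 14 tested, 11 rose and none fell between day 42 and day 1, with a median log2 difference of 3.14. Among those that rose, Klra4, Klra5, Klra7, Klrb1 and Klri2 were each well above background on 0 of 5 day 1 arrays. They passed the filter through later ages, so the count and median rest in part on signal not well above background. As for Klra8, probes of Ly49 genes may also read other members. Beside this list and the other lists in that comparison, 13.1% of all genes rose and 13.7% fell. These lists too were chosen with earlier results of these data known. Klra4, which encodes the activating receptor Ly49D, was at least 31.9-fold higher (adjusted p = 6.61e-08), and Klra7, which encodes the inhibitory receptor Ly49G, at least 22.1-fold (adjusted p = 7.14e-07). Klrg1, a receptor of mature NK cells, measured above background on 2 of 5 day 1 arrays, rose by 4.10 ± 0.43 (adjusted p = 1.96e-07), and Klrb1c, which encodes NK1.1, by 3.16 ± 0.40 (adjusted p = 2.38e-06). Between day 14 and day 7, 7 of 14 rose, where 6.03% of all genes did. Klra4 had 3.48 ± 0.65 there (2 of 5 day 7 arrays well above background) and Klra7 2.73 ± 0.69 (3 of 5). The 3 that did not pass between day 42 and day 1 were Klra1 (0.99 ± 0.74), Klra2 (1.74 ± 0.92) and Klrb1f (1.62 ± 0.64), which are named with their values already seen. Without the 5 arrays the count between day 42 and day 1 was 13 of 14, where 22.7% of all genes rose.

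**Figure D3:**
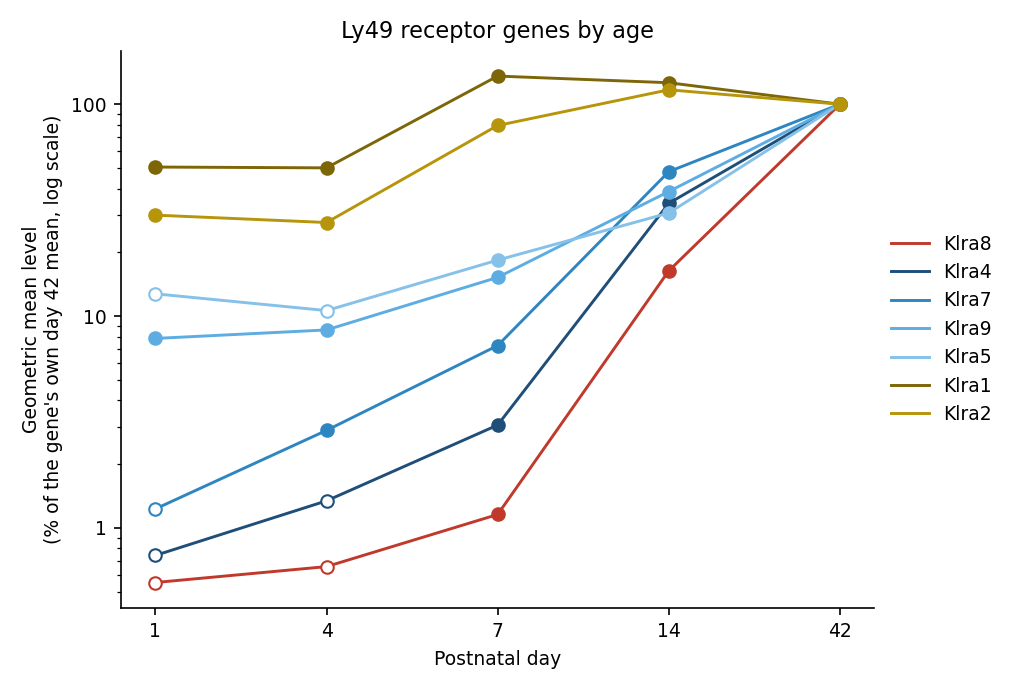
Geometric mean level of 7 Ly49 genes by postnatal day, in percent of the gene's own day 42 mean (log axis). Open circles mark ages at which the probe was well above background on 0 arrays. Klra8, Klra4 and Klra7 are not well above background on any day 1 array, while Klra1 and Klra2 are near their own day 42 means from day 7 on.

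Of the 8 other granzymes on the array 2 were tested, and 1 rose. Gzmm, a granzyme of NK cells, rose by 1.16 ± 0.31 between day 42 and day 1 (adjusted p = 0.00705). Gzmk had -0.62 ± 0.25 (adjusted p = 0.0728), with a geometric mean of 20.7 at day 42 and 31.8 at day 1. Gzmc and Gzmd were each well above background on 1 array of 24, and Gzme, Gzmf, Gzmg and Gzmn on 0. Of 13 genes of granule processing, release and death ligands, 8 rose and none fell, with a median of 0.80. Fasl, the ligand of the death receptor Fas, was at least 8.15-fold higher (adjusted p = 4.67e-08), and Cst7, which encodes the protease inhibitor cystatin F, rose by 3.02 ± 0.43 (adjusted p = 1.06e-05). Ctsw, a protease of cytotoxic lymphocytes, rose by 1.94 ± 0.38 and Tnfsf10, which encodes TRAIL, by 1.56 ± 0.53.

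Of 21 other NK receptors and signalling adaptors, 13 rose and 1 fell between day 42 and day 1 (median 1.47). Slamf7, measured above background on 2 of 5 day 1 arrays, rose by 3.03 ± 0.29, Cd96 by 2.97 ± 0.26, Sh2d1a, which encodes the adaptor SAP, by 2.75 ± 0.33 and Il2rb, the shared chain of the IL-2 and IL-15 receptors, by 2.86 ± 0.43. The gene that fell was Itga2, which encodes the integrin CD49b (-0.95 ± 0.16, adjusted p = 6.51e-05). Of 23 cytokines, chemokines and their receptors, 18 rose and none fell (median 1.91). Ccl5, a chemokine of NK and T cells, rose by 3.38 ± 0.45, and Ifng, which encodes interferon gamma, by 2.97 ± 0.48. Xcl1, a chemokine that attracts cross-presenting dendritic cells, was at least 2.28-fold higher (adjusted p = 1.73e-05).

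Among 15 transcription factors of the NK lineage, 5 rose and 2 fell between day 42 and day 1, where 13.1% and 13.7% of all genes did. Stat4, which acts downstream of IL-12, rose by 2.56 ± 0.29 and Ikzf1 by 1.72 ± 0.23. Nfil3, a factor needed early in NK development and active in many other cells, fell (-1.15 ± 0.41, adjusted p = 0.0394), a call lost without the 5 arrays (-0.87, adjusted p = 0.0617). So did Id2 (-0.74 ± 0.22, adjusted p = 0.0143), the other gene that fell, named after its value was seen. Of 11 ligands of NK receptors, 6 rose and 2 fell. H2-K1 and H2-T23, class I genes of which the second encodes Qa-1, rose by 1.96 ± 0.40 and 1.86 ± 0.39, and B2m, the light chain of class I, by 1.82 ± 0.24. The NKG2D ligands Raet1e (-1.37 ± 0.13, adjusted p = 7.5e-08) and Ulbp1 (-1.47 ± 0.34, adjusted p = 0.00215) fell, while the gene of their receptor, Klrk1, rose.

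**Figure D4:**
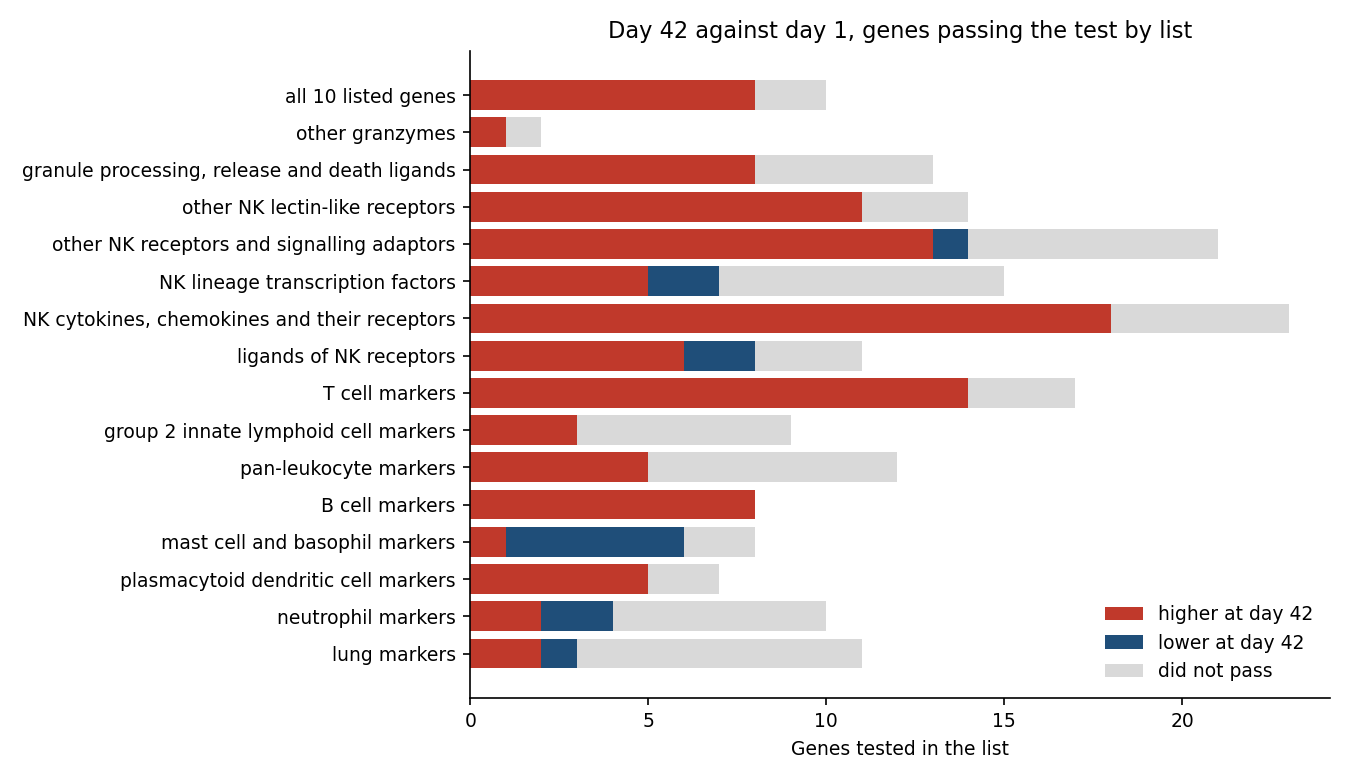
Number of genes tested in each list (x axis) that were higher at day 42 (red), lower at day 42 (blue) or did not pass (grey) against day 1, at an adjusted p below 0.05. In the top bar 8 of the 10 genes described rose, and the T cell bar shows 14 of 17.

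T cells also express several of the 10 genes, and markers of T cells rose between day 42 and day 1 as well. Of 17 T cell markers, 14 rose and none fell (median 2.20), among them Cd8a (3.18 ± 0.25) and Cd6 (3.02 ± 0.38). Between day 14 and day 7, 6 of the 17 rose (median 1.01), where 6.03% of all genes did. Between day 42 and day 14, 0 of the 17 passed (median 0.71), where 2.19% of all genes rose. The differences of all 17 lay above 0, so the count does not show that they stayed flat. Without the 5 arrays 6 rose in that last comparison, where 6.77% of all genes did. The summed level of the 17 markers, in which bright probes weigh most, was 2316 to 5548 on day 42 arrays and 678 to 2015 on day 1 arrays. Without the 5 arrays it was 2316 to 2893 and 678 to 1011. At day 1, 3 of the 17 (Themis, Trat1 and Ubash3a) were well above background on 0 arrays, and at day 42 none. Of 12 pan-leukocyte markers 5 rose between day 42 and day 1, and 12 without the 5 arrays, where 13.1% and 22.7% of all genes rose. Their summed level, weighted in the same way to bright probes, was 8756 to 23651 at day 42 and 3108 to 12654 at day 1. Without the 5 arrays it was 8756 to 11257 and 3108 to 4899.9. The part of T cells, and of leukocytes as a whole, in the rise of the 10 genes was not tested.

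Over the 24 arrays, the genes whose log2 level was most like the mean standardized level of the 10 were Ccl5 (Pearson r = 0.97), B2m (0.97), Cacna2d4 (0.97), Il2rb (0.96) and Klrb1c (0.96). Among the next were Rprml, Ccn5, Tlcd3b and Cst7 (r = 0.95 to 0.96). These correlations describe arrays that share ages, and the 5 arrays, with one another. Tbx21 was most like Ccl5 (0.99) and Il2rb (0.98), Eomes like B2m (0.99) and Il2rb (0.97), Gzmb like Tbx21 (0.96) and Ccl5 (0.96), and Gzma like Gzmb (0.90). Prf1 was most like Nagpa (0.98), Nkg7 like Psmb10 (0.99) and Klrd1 like 1700001J03Rik (0.98). Among the 45 pairs of the 10 genes r ran from -0.36 to 0.98 with a median of 0.76, and without the 5 arrays from 0.79 to 0.97 with a median of 0.91.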

How the data were processed

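Total RNA of 24 whole lung samples was read on Agilent 1-colour arrays, and the number of arrays limits the precision. The deposited files hold processed spot signal as linear intensity, from Feature Extraction, whose version is 10.7.3.1 per the file headers and 10.7.1.1 per the submitters' processing notes. The authors' deposited table of log2 values matched the scanner values (r = 0.986 to 1.00) and served as an alternative.

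The processed signal was divided by each array's 75th percentile (475.9 to 1652 intensity units) and log2 was taken. Control spots and 138 probes were left out, and 0 spots were saturated. Probes were named through RefSeq (GRCm38.p6) by transcript accession. Each gene took its brightest probe over 24 arrays and was tested if 4 or more arrays had it flagged well above background. Ages were compared in R 4.3.3 with limma 3.58.1 over all 24 arrays, with Benjamini-Hochberg adjustment at 0.05 over all genes in each comparison, after tests on simulated data.

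Alternatives were normexp background (offset 50, on the median spot signal), quantile and median scaling, other filters and probe rules, array weights, slide and replicate blocks, the compared ages alone, and left-out arrays. The text names all 10 genes, up to 4 genes per list and comparison with the largest difference past the test, and the genes most correlated with the 10, apart from some that are not reported here. The members and lists were chosen with earlier results of these data known.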

Additional observations from a re-analysis of the deposited data

Results flagged for a closer look

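In 6 of the 50 sets of 1 gene at 1 age, a single array lay far from the others of its age (a gap to the nearest array, as a share of the whole range, above the limit for that number of arrays). Chance marks about 1 in 20 such sets.

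On day 42 replicate 4, one of the 5 arrays, Prf1 was highest at 198.7 (56.9 to 69.5 on the other day 42 arrays) and Nkg7 was highest at 1449 (298 to 385 on the others). Klrd1 was lowest there at 10.1, where the others read 88.4 to 121. On day 14 replicate 5, which is not one of the 5 arrays, Gzmb was lowest at 6.09, where the other day 14 arrays read 10.71 to 13.04. Klra8 was lowest there at 5.37 (21.6 to 31.0 on the others), and Eomes at 4.86 (8.41 to 10.2 on the others). All values are in percent of the array's 75th percentile.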

How the results depend on the processing

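Of the 10 genes, 8 to 10 rose between day 42 and day 1 in all alternatives but one (with the normexp background 8, Klrk1 being lost and Nkg7 gained). The exception was 3 when only genes well above background on all arrays were tested, a filter that removes 5 of the 10, and the count over any age was then 4. No single-gene difference with a call turned its direction. The 5 between day 42 and day 14 became 3 with that filter and 3 in a fit of the compared ages alone. They became 4 with the normexp background, 6 with every probe tested, 7 with quantile scaling and 7 with median scaling. The count was 8 with the authors' table, 9 without the 5 arrays and 8 without these and day 14 replicate 5 (the 6 arrays). With array weights it was 10. Between day 14 and day 7 the 2 became 0 with that filter and 1 with the normexp background. They became 1 with the mean of a gene's probes and 3 with the authors' table. Without the 5 arrays the count was 9, without the 6 it was 10, with the compared ages alone 9 and with array weights 10. In those 4 fits 6139, 7109, 4944 and 9588 of 15895 genes passed. Between day 7 and day 4 array weights gave 5. Leaving out 1 array at a time gave 0 and 0 for the first 2 intervals, 2 to 6, 5 to 6 and 8 to 9 for the others, and 8 to 9 over any age. Of 1825 single-gene values under alternatives, 1718 kept direction and side of the threshold, 6 lost and 79 gained a call, and 22 without a call moved.

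Over all genes, 9, 1, 1842, 588 and 4259 passed in the 5 comparisons and 5050 over any age. The alternatives gave 0 to 472, 0 to 4469, 1304 to 9588, 206 to 4968, 2178 to 8270 and 4214 to 12772, the highest each time with array weights. With 1 array left out at a time the same counts were 4 to 50, 1 to 13, 1348 to 2369, 362 to 872, 3495 to 5845 and 4391 to 6282. Median scaling moved the share of calls that were higher to 31.5% (52.0% otherwise) between day 14 and day 7 and to 78.9% (59.2% otherwise) between day 42 and day 14, with a median of all genes at -0.17 and 0.30, and all 10 genes stayed above 0. With the normexp background the median of the 10 between day 42 and day 1 was 1.72.

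Of 46 same-numbered pairs 16 correlated over 0.1 (-0.85 to 0.88), and 4 arrays correlated best with their own number. The highest value joined day 1 replicate 4 and day 42 replicate 4, both among the 5 arrays. Since the 5 arrays weigh on these correlations, they cannot decide whether replicate numbers pair the samples. With the replicate block, 0, 0, 2, 5 and 8 passed, and 8 over any age. Low signal leaves a bound where no array of an age was well above background (Klra8 and Ncr1 at days 1 and 4, Klrk1 at days 1, 4 and 7), and makes the day 7 means of Klra8, Ncr1 and Eomes less certain.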

Other observations

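Markers of other blood cells were followed in the comparison of day 42 with day 1, in which 13.1% of all genes rose and 13.7% fell. All 8 B cell markers rose, with a median log2 difference of 2.24. Cr2, which encodes the complement receptor CD21, rose by 3.65 ± 0.54 (adjusted p = 1.74e-05). Pax5, the B cell lineage factor, was at least 3.099-fold higher (adjusted p = 1.04e-05). Of 7 markers of plasmacytoid dendritic cells 5 rose and none fell, and of 9 markers of group 2 innate lymphoid cells 3 rose and none fell. Those 3 were Klrg1, Il7r and Icos, and Klrg1 was also counted among the lectin-like receptors of NK cells.

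Of 8 mast cell and basophil markers, 1 rose and 5 fell between day 42 and day 1. Mcpt4, a mast cell protease, fell (-4.23 ± 0.54, adjusted p = 2.46e-06), and Cpa3, mast cell carboxypeptidase, had -2.94 ± 0.58 (adjusted p = 0.000485). Of 10 neutrophil markers 2 rose and 2 fell, beside 13.1% and 13.7% of all genes. The granule protein genes Ngp (-3.27 ± 0.71, adjusted p = 0.00125) and Camp (-3.05 ± 0.52, adjusted p = 9.87e-05) were those that fell. Of 11 lung markers 2 rose and 1, the collagen gene Col1a2, fell (-1.95 ± 0.27), beside the same shares of all genes. Without the 5 arrays 7 of the 11 rose, where 22.7% of all genes did.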
